A study of Mus musculus with 2 samples.

Results

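AP-1 is a family of paired transcription factors, and 7 of its genes (Fos, Fosb, Fosl1, Fosl2, Jun, Junb and Jund) are followed here together with the immediate early genes Egr1, Ier5l and Btg2, across the cell classes of mouse tumours. The 10 genes were taken by symbol from the 32285 features of both count matrices, where each symbol had 1 row. They were chosen by their levels and ratios in these same libraries, which were known when the group was drawn up, so every level and ratio given for them is a description of the libraries and no test supports it.

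A Fos protein pairs with a Jun protein through a leucine zipper, and the pair binds the AP-1 site in promoters and enhancers. Immediate early genes are switched on within minutes of a stimulus, without new protein synthesis, by factors already present in the cell such as SRF and CREB. In tumours they respond to growth factor and stress kinases, and in macrophages and lymphocytes to cytokine and antigen receptors. Warm enzymatic digestion of tissue is also known to raise Fos, Jun and Egr1. No source used here tells how these tumours were dissociated, and the part of digestion in the results was not tested.

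The tumours grew from MC38, a mouse colon adenocarcinoma line. The control library came from a tumour of genotype Mbtps1 WT. The other came from a tumour of genotype Mbtps1 KD, titled SHM and named a knockout in the series text, and it is called knockdown here. Mbtps1 encodes site-1 protease, an enzyme of the Golgi that cuts membrane-bound transcription factors. Each group held 1 library, made with a droplet 3' kit. The number of animals behind each library, the host strain and the nature of the Mbtps1 change are not stated in what was used. The comparison asks how loss of MBTPS1 relates to the tumour and the cells around it.

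The libraries held 177399315 (control) and 174190399 (knockdown) UMIs, unique molecular identifiers that count each captured RNA molecule a single time. Of these, 11304 control and 17127 knockdown cells were kept, with median depths of 7982.5 and 4350 UMIs, and 49 cell barcodes occurred in both libraries. Clustering without the 10 genes, their related lists and mitochondrial genes gave 26 clusters, and 9 classes named from markers had at least 50 cells in each library. The tumour-like class (4376 and 6662 cells) joined clusters with Xist below 20 CPM and at least 3 of the 24 markers fixed for it. Cluster 4 counted 3 of these markers and cluster 5 counted 4. In the class sums of both libraries 6 of the markers, namely H19, Ogn, Igf2bp2, Igf2bp3, Hmga2 and Cdkn2a, had at least 20 CPM. The other 18 stayed below 20 CPM, with Cdh2 at 14.3 and 15.9 CPM, Nes at 3.08 and 3.32 CPM and Prl2c2, Prl2c3, Peg3, Mdk, Mycn and Wfdc18 at 2.09 CPM or less. The epithelial markers of its list, among them Epcam, Cdh1, Krt8 and Krt18, had at most 0.835 CPM. A haemoglobin-rich cluster of 150 control and 2142 knockdown cells, with a median of 698 UMIs, stayed unnamed. The median mitochondrial share of a cell was lower in the knockdown library in 9 of 9 classes, and its part in the results was not tested. Mbtps1 itself had 28.9 CPM in the tumour-like class of the control library and 12.3 CPM in that of the knockdown library, and 19.2 and 19.3 CPM in macrophage/monocyte-like cells.

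CPM stands for UMIs of a gene per 1000000 UMIs of the class and library. Intervals are 95% exact Poisson intervals and cover counting error only. They leave out the spread between animals, which 1 library per group cannot give, and the spread between cells of a class. The tenth of tumour-like cells with the most Fos held 69.6% of its UMIs in control and 79.4% in knockdown. Intervals that took in the spread between cells would be wider. A member is called higher or lower in the knockdown library when its ratio of knockdown over control was at least 1.5-fold from 1, the interval of the ratio excluded 1 and both libraries together held at least 20 UMIs. In summed UMIs, fewer expressing cells and less RNA per cell cannot be told apart.

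The 250 bases before the RefSeq start are shown for 4 members. Fos, Fosb and Btg2 are 3 of the members with motif matches, while Fosl2, which also holds a match, is not shown. Ier5l is the member with the lowest ratio in tumour-like cells. On GRCm38 (GENCODE vM21) Fos lies at chr12:85473890-85477273, Fosb at chr7:19302696-19310051, Fosl1 at chr19:5447547-5455946, Ier5l at chr2:30471537-30474219 and Btg2 at chr1:134075170-134079120, all protein coding. RefSeq (GRCm38.p6) windows were matched for 8 of the 10 members, all but Fosl1 and Egr1. Each is written 5' to 3' on the strand of the gene, with motif matches in capitals. Fos (chr12:85473640-85473889, plus strand) holds a TATA box. Fosb (chr7:19310046-19310295, minus strand) holds an EGR site. Btg2 (chr1:134079156-134079405, minus strand) holds a cAMP response element and, after it, an EGR site. Ier5l (chr2:30474200-30474449, minus strand) holds no match to the motifs searched.
Fos: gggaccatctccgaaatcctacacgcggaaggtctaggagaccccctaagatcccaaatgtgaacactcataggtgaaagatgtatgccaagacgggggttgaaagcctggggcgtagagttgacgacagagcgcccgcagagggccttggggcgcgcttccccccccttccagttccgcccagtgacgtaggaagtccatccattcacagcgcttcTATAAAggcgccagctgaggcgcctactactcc
Fosb: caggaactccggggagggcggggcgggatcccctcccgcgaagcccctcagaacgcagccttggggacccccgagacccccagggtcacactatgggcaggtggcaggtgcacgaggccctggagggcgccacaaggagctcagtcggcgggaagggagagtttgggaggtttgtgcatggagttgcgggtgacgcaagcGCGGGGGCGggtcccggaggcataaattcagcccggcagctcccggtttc
Ier5l: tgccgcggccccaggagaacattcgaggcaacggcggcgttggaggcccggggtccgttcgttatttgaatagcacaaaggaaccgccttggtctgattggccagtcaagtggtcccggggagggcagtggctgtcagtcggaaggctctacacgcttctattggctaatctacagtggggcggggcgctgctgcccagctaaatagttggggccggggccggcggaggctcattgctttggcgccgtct
Btg2: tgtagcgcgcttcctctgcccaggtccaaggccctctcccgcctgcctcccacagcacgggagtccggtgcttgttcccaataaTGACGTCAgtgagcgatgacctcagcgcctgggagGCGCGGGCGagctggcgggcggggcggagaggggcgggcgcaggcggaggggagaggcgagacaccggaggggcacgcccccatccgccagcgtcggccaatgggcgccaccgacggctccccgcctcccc

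The motifs were searched on both strands as the cAMP response element TGACGTCA, the AP-1 site TGANTCA, the EGR site GCGNGGGCG, the TATA box TATAAA and the CArG box by name. The TATA box of Fos lay 33 to 28 bases before the start. EGR sites lay 50 to 42 bases before the start of Fosb, 79 to 71 before Fosl2 and 131 to 123 before Btg2, whose cAMP response element lay 166 to 159 bases before it. An EGR site was thus in 3 of 8 member windows, against 4.7% of 32851 windows of the same length. The cAMP response element was in 1 of 8 against 1.55%, and the TATA box in 1 of 8 against 12.4%. The AP-1 site and the CArG box were in 0 of 8, against 6.75% and 1.47%. Only exact letters within the 250 bases were searched, so variant sites and sites further upstream were not counted. In the Fos window, for example, tgacgtag starts like the cAMP response element and was not counted. A count of 0 therefore does not mean that a member lacks such an element. A RefSeq start can differ from the GENCODE start. The Jund window (chr8:70697489-70697738) lies apart from the GENCODE gene, which starts at 70698949, so the bases just before that start were not searched. The Fosl2 window (chr5:32136222-32136471), with its EGR site, lies inside the GENCODE gene, which starts at 32135801. The Fosb and Ier5l windows overlap their GENCODE genes, which reach to 19310051 and 30474219. The motif letters do not overlap between these motifs in the windows shown, and a match or its absence says nothing of whether a factor binds.

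**Figure D1:**
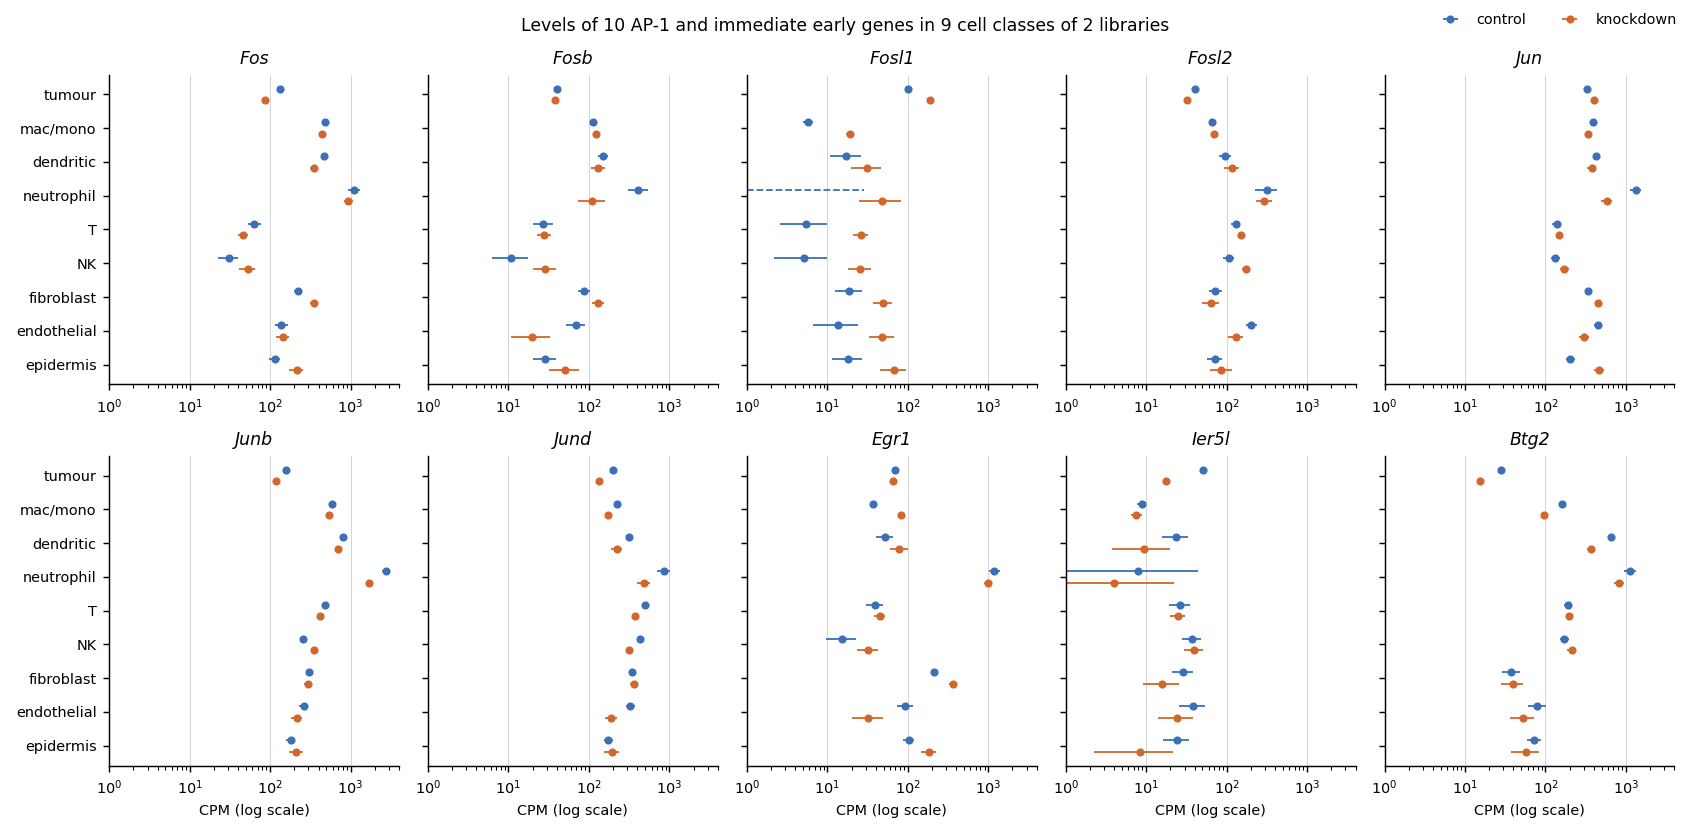
Level of each gene (CPM, log scale) in 9 cell classes of the control (blue) and knockdown (orange) libraries, with 95% exact Poisson intervals; the dashed line for Fosl1 in control neutrophils marks a count of 0. Neutrophils had the highest Junb, 2774 and 1705 CPM, and tumour-like cells the highest Fosl1, 101.5 and 189.8 CPM.

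In tumour-like cells Fosl1 was the member with more RNA in the knockdown library, while Ier5l, Btg2, Fos and Jund had less. Jun, the most abundant member of the class, and the remaining members differed by less than 1.5-fold. Thus 1 of 10 members was higher and 4 of 10 were lower, beside 11.7% of 17322 genes higher, 4.02% lower and 15.7% either in the same class. The median log2 ratio was -0.35 over the members and 0.08 over all genes of the class. The contrast was also used to choose the members, so these counts are not read further.

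Fos, the partner most often paired with Jun after a stimulus, had 134 CPM (132 to 136) in the control and 85.6 CPM (83.8 to 87.4) in the knockdown library. The ratio was 0.638 (0.621 to 0.655). Fosb, whose protein has a shorter form that accumulates on repeated stimulation, had 40.1 and 38.4 CPM, a ratio of 0.958. Fosl2, which encodes FRA-2, had 40.4 and 32.5 CPM, a ratio of 0.805.

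Fosl1 encodes FRA-1, a Fos relative without the strong activation domain of Fos, and is itself a target of AP-1. Its level was 101.5 CPM (99.5 to 103) in the control and 189.8 CPM (187 to 193) in the knockdown library, from 10502 and 19083 UMIs. The ratio was 1.87 (1.83 to 1.92). A UMI of Fosl1 was found in 60.4% of control and 74.0% of knockdown tumour-like cells, whose median depths were 21932.5 and 14125 UMIs. With every cell thinned to 500 UMIs, for which no cell had to be left out, the shares were 3.84% and 9.07%. In T-like cells, which should hold little Fosl1, the shares were 1.802% and 5.24% at median depths of 2637 and 1835.5 UMIs, and 0.360% and 1.57% after thinning. Among Fos-family UMIs of the tumour-like class, Fosl1 made up 32.1% in control and 54.8% in knockdown, and Fos 42.5% and 24.7%.

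In the Jun family, Jun was above 1 and Junb and Jund were below. Jun, which JNK phosphorylates under stress, had 326 CPM (322 to 329) in the control and 402 CPM (398 to 406) in the knockdown library. Its ratio was 1.23, with an interval of 1.21 to 1.251. Junb, often an antagonist of Jun in proliferation, had 157 and 119.7 CPM, a ratio of 0.763. Jund, the member expressed most evenly in resting cells, had 199.6 CPM (197 to 202) and 133 CPM (130.5 to 135), a ratio of 0.665 (0.650 to 0.679), just past 1.5-fold. Jun made up 47.8% of Jun-family UMIs in control and 61.4% in knockdown.

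Junos, a transcript from the strand opposite Jun that overlaps it, had 23.7 and 51.4 CPM in tumour-like cells, a ratio of 2.17 (2.07 to 2.28). In macrophage/monocyte-like cells Junos had 73.4 and 63.7 CPM, a ratio of 0.868, close to the 0.859 of Jun. Fosl1, Junb and Jund also overlap a neighbour in GENCODE vM21 (Ccdc85b, Prdx2 and Gm11175). No label or header says whether strand was used in the counting, so whether reads of such pairs were kept apart is not known here.

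Ier5l, a relative of the heat shock regulator Ier5, showed the lowest ratio of the members in tumour-like cells. It had 51.4 CPM (50.1 to 52.8) in control and 17.8 CPM in knockdown, from 5323 and 1791 UMIs. The ratio was 0.346 (0.328 to 0.365), or 2.89-fold lower. A UMI of Ier5l was found in 57.4% and 20.6% of tumour-like cells, and in 2.97% and 1.04% after thinning. Macrophage/monocyte-like cells, at median depths of 5984 and 3693 UMIs, had 4.80% and 2.95%, and 0.486% and 0.369% after thinning. Btg2, a p53-responsive gene whose protein slows proliferation and recruits the deadenylase that shortens mRNA tails, had 27.8 CPM (26.8 to 28.9) and 15.5 CPM (14.8 to 16.3), a ratio of 0.558 (0.524 to 0.593). Egr1, a zinc-finger factor that binds GC-rich sites, had 69.6 and 65.1 CPM, a ratio of 0.935 (0.904 to 0.967).

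**Figure D2:**
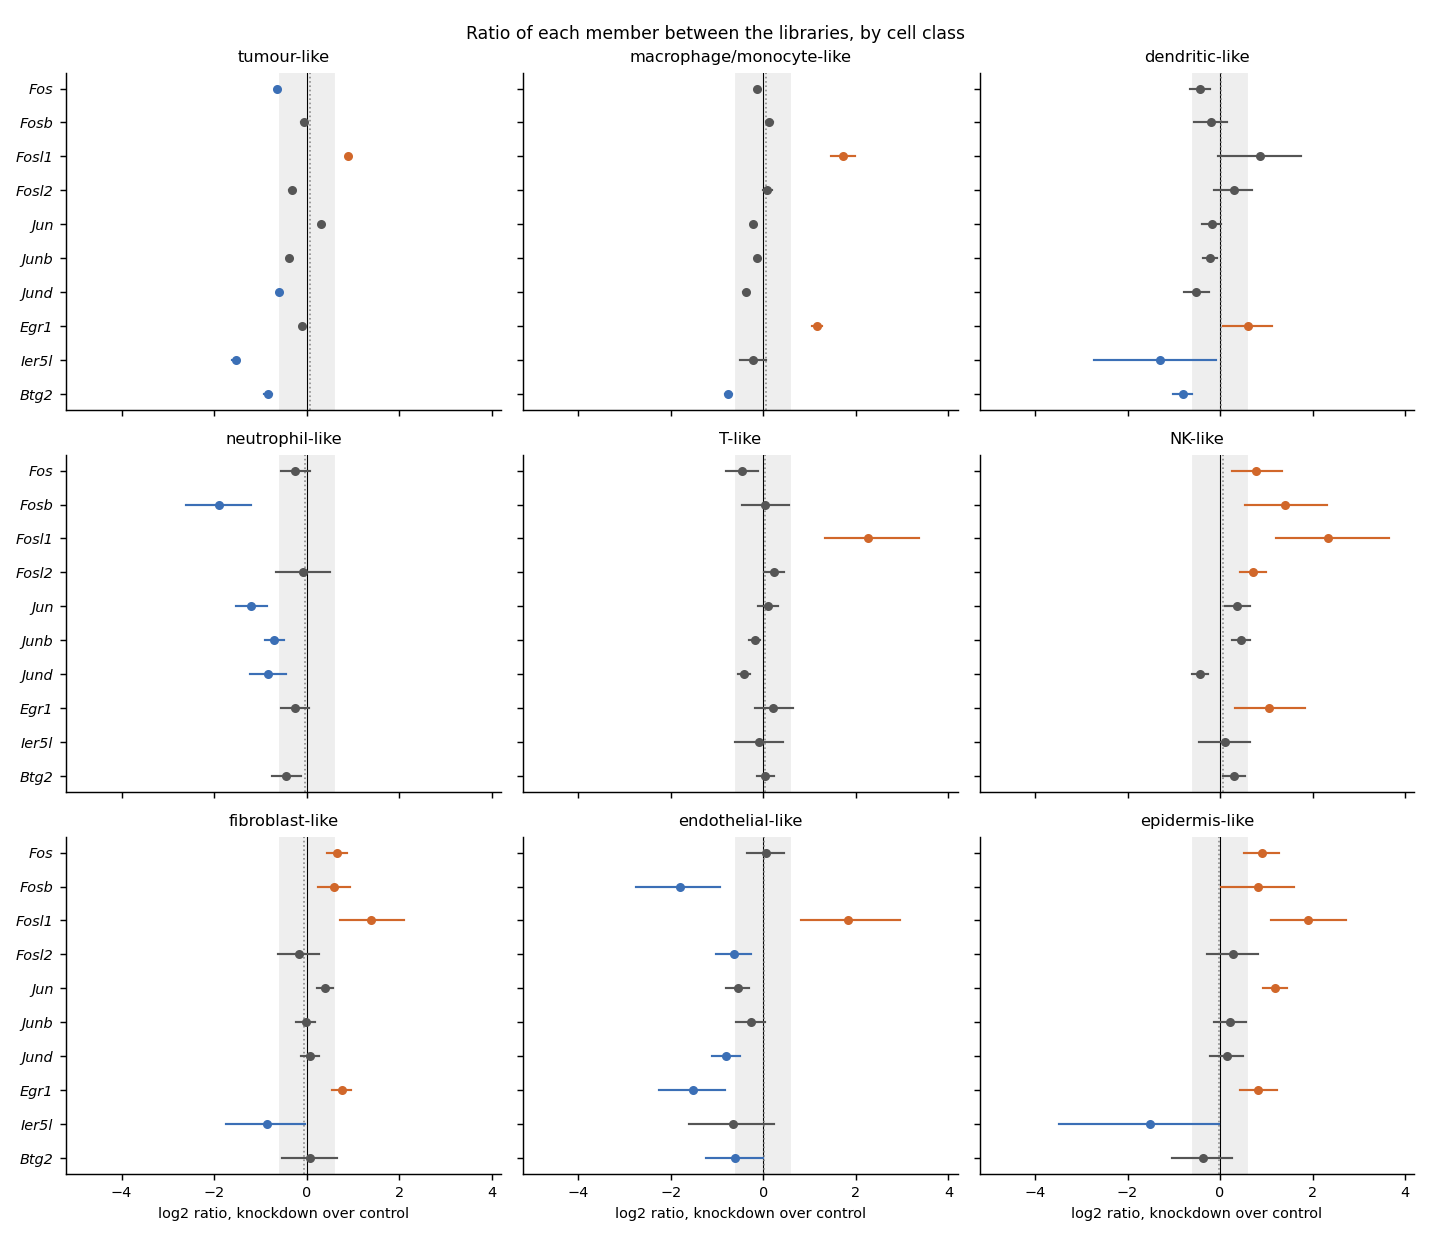
Ratio of knockdown over control on the log2 scale for each gene in 9 cell classes, with 95% intervals; orange and blue mark calls, grey bands span 1.5-fold either way, dotted lines the median of all genes, and genes under 20 UMIs are left out. Fosl1 lay to the right in every class with a value, and Btg2 lay at or below -0.76 in tumour-like, macrophage/monocyte-like and dendritic-like cells.

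The tumour-like class held 6 clusters in each library, and the ratios inside them separated the members into those with a common direction and those without. Ier5l was lower in 6 of 6 clusters, with ratios of 0.319 to 0.505, and Fosl1 was higher in 6 of 6, with ratios of 1.26 to 2.36. Jun was above 1 in 6 of 6 (1.14 to 1.65), as was Junos (1.28 to 3.13). Jund was below 1 in 5 of 6 clusters, with ratios of 0.573 to 0.830, and was 1.10 (1.05 to 1.16) in cluster 6.

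Fos, Btg2, Junb and Egr1, by contrast, had class ratios below the range of their clusters. For Fos the ratios within clusters were 0.786 to 1.09, all nearer 1 than the 0.638 of the class. For Btg2 they were 0.627 to 1.76, beside 0.558 for the class, with intervals below 1 in 3 of 6 clusters and above 1 in 1. Junb had 0.777 to 1.37 beside 0.763, and Egr1 0.943 to 2.59 beside 0.935. Cluster 6, led by Mfap4, Aspn, H19 and Ogn, held the most Fos, with 266 CPM in control and 235 CPM in knockdown, and numbered 1310 control but 530 knockdown cells. It also counted 4 of the fibroblast markers, with Xist at 4.73 CPM. Across the tumour-like class the 12 fibroblast markers summed to 2892 CPM in control and 1825 CPM in knockdown. Without cluster 6 the class ratio of Fos was 0.857 and that of Btg2 0.802, both short of 1.5-fold, while Ier5l was 0.361, Fosl1 1.61 and Jund 0.665. With the 6 clusters at equal weight Fos was 0.920, Btg2 0.889 and Jund 0.799, so that of the 5 calls Fosl1 (1.56) and Ier5l (0.418) were past 1.5-fold. With 10% of free RNA subtracted Fos was 0.681 and Jund 0.683, just short of it.

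Cluster 10, led by the interferon-induced genes Rsad2, Ifit3 and Ifit1, held 141 control and 137 knockdown cells and stood apart for several members. Egr1 had 67.1 CPM in control and 174 CPM in knockdown cells of that cluster, a ratio of 2.59 (2.21 to 3.05). Fosb was 1.82, Btg2 1.76 and Junb 1.37 there, above their ratios in the other 5 clusters. The differences between clusters were not tested. Egr1 had an interval above 1 in 3 of 6 clusters and below 1 in 0 of 6, although its class ratio was 0.935. Without cluster 6 the class ratio of Egr1 was 1.32.

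**Figure D3:**
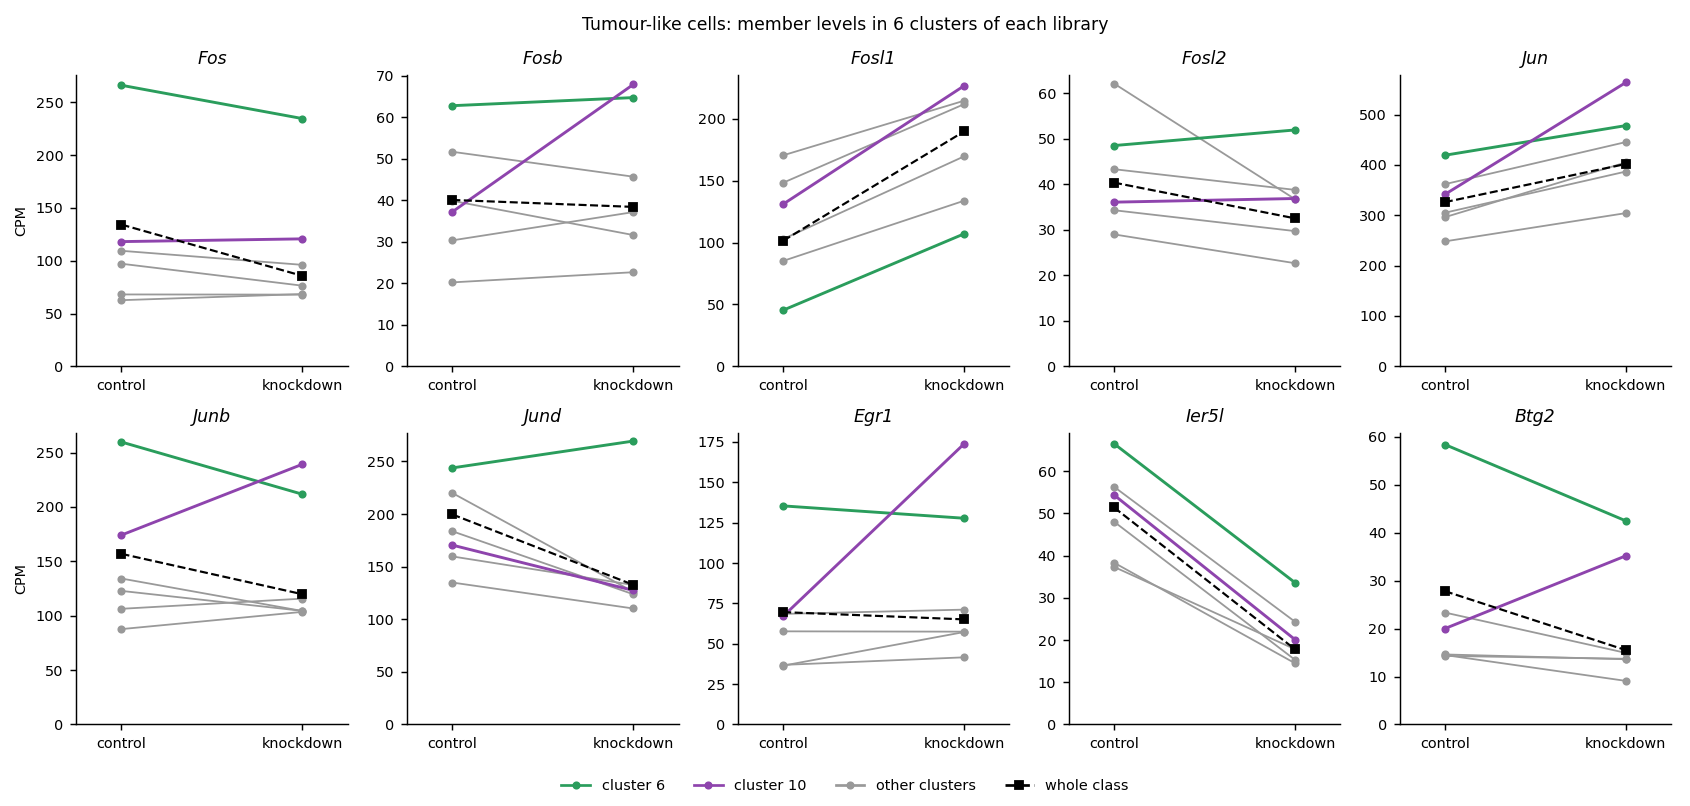
Level (CPM) of each gene in 6 tumour-like clusters of the control and knockdown libraries, 1 line per cluster, with the whole class as black squares. Lines for Ier5l all slope down and those for Fosl1 and Jun all slope up, while the class line of Fos is steeper than its clusters (0.786 to 1.09).

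In cluster 5, which Fosl1 helps to lead although it was not used for clustering, Fosl1 had 148 CPM in control and 212 CPM in knockdown, a ratio of 1.43 (1.37 to 1.48). That cluster, with Ankrd1 among its leading genes, numbered 872 control and 2413 knockdown cells.

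Macrophage/monocyte-like cells had more Egr1 and less Btg2 in the knockdown library, with the Fos and Jun families within 1.5-fold apart from Fosl1. Of the 10 members 2 were higher and 1 lower, beside 7.42% of 14322 genes higher, 1.36% lower and 8.78% either. The median log2 ratio was -0.13 over the members and 0.06 over all genes. Egr1, which in these cells follows growth factor and inflammatory signals, had 37.2 CPM (35.1 to 39.4) in control and 82.7 CPM (78.8 to 86.6) in knockdown, a ratio of 2.22 (2.06 to 2.39). Btg2 had 160.1 CPM (155.7 to 164.6) and 94.6 CPM (90.5 to 98.8), a ratio of 0.591 (0.561 to 0.622). Markers of red blood cells summed to 0.761 CPM in control and 37.7 CPM in knockdown cells of the class, and T-cell markers to 14.7 and 28.9 CPM, and their part in the results was not tested.

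The most abundant member of the class was Junb, with 593 and 543 CPM, followed by Fos with 477 and 436 CPM and Jun with 391 and 336 CPM. Their ratios were 0.914, 0.915 and 0.859. Jund had 225 and 173 CPM, a ratio of 0.769, and Fosb 112 and 123 CPM, a ratio of 1.09. Fosl2 and Ier5l had ratios of 1.06 (0.993 to 1.14) and 0.857 (0.701 to 1.05), whose intervals held 1.

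Among the 6 macrophage/monocyte-like clusters the Egr1 ratio ranged from 1.12 to 3.43. It was highest in cluster 8, led by Cxcl2, Mmp12, Ccrl2 and Il1b, with 72.7 CPM in control and 249 CPM in knockdown (interval of the ratio 3.02 to 3.898), and next in cluster 2, led by Retnla, Ccl6 and Cd209f, with 209 and 535 CPM, a ratio of 2.56. The intervals lay above 1 in 4 of 6 clusters and held 1 in cluster 0 and in cluster 22. Btg2 ratios ranged from 0.533 to 0.780, with intervals below 1 in 5 of 6 clusters, so its lower level was shared by most of the class. Fosb was 2.06 (1.64 to 2.60) in cluster 2 and 1.21 in cluster 8, but at most 1.12 in the other 4. Cluster 22, led by the monocyte genes Chil3, Ifitm6 and Hp, had 835 and 445 CPM of Jun, a ratio of 0.533 (0.477 to 0.595).

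**Figure D4:**
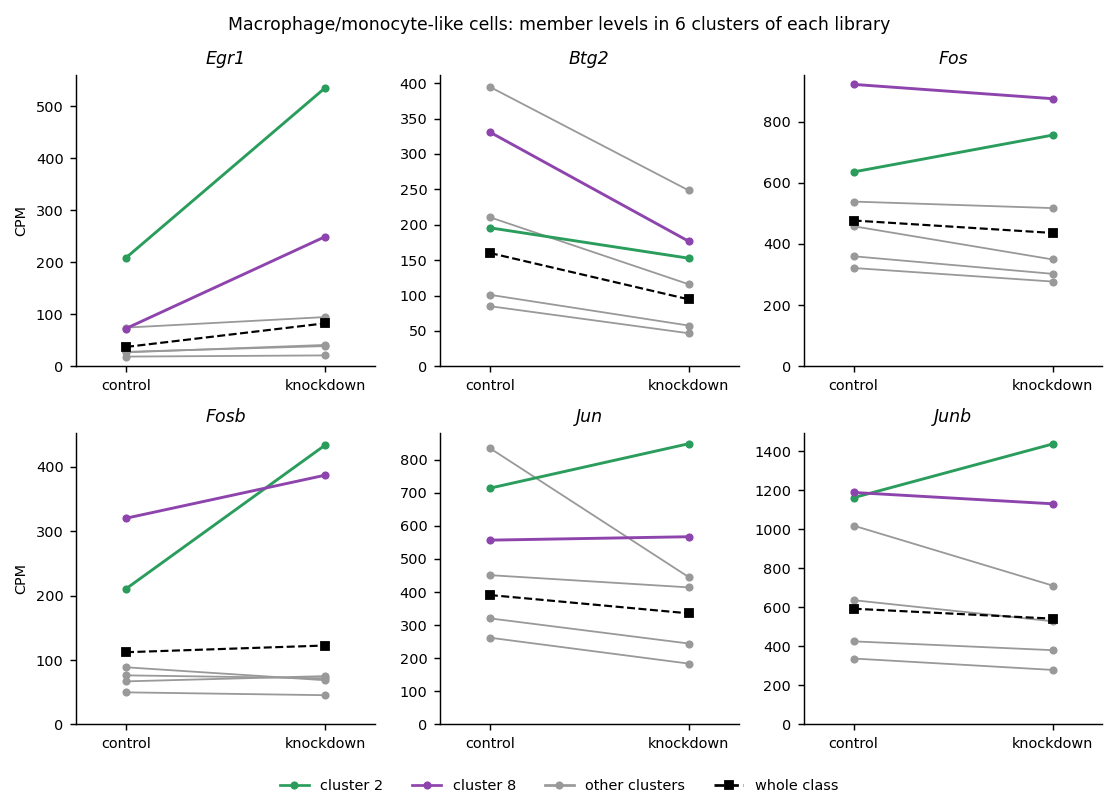
Level (CPM) of 6 of the genes in 6 macrophage/monocyte-like clusters of the control and knockdown libraries, 1 line per cluster, with the whole class as black squares. Egr1 slopes up most in clusters 2 and 8 (ratios of 2.56 and 3.43), and Btg2 slopes down in each cluster.

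Dendritic-like cells (268 control and 217 knockdown cells) had less Btg2 and more Egr1 in the knockdown library, as the macrophages did. Igkc, a fixed marker of plasma cells, and Ighg2c led their cluster, with Ccr7 and Siglech also among its leading genes. The part of this mix in the ratios of the class was not tested. Btg2 had 644 CPM (602 to 689) in control and 367 CPM (325 to 413) in knockdown, a ratio of 0.570 (0.495 to 0.654). Egr1 had 51.8 and 78.5 CPM, a ratio of 1.52 (1.05 to 2.18). Here 1 member was higher and 2 were lower, beside 6.46% and 4.36% of 8144 genes and 10.8% either, the second lower one being Ier5l with 31 and 7 UMIs.

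Neutrophils, short-lived cells of the innate defence, had the highest level among the 9 compared classes for 7 members in both libraries and for Fosb in the control. Mast or basophil-like cells, too few to compare, had more Jun (1858 and 1944 CPM) and more Jund (1259 and 801 CPM). The class held 72 control and 205 knockdown cells at median depths of 1477.5 and 1095 UMIs. Junb, which had 2774 CPM (2493 to 3079) in control, had 1705 CPM (1548 to 1873) in knockdown, a ratio of 0.615 (0.533 to 0.709). Jun had 1316 CPM (1125 to 1531) and 575 CPM (485 to 676), a ratio of 0.437 (0.347 to 0.548), and 1 control cell held 36 of its 168 UMIs. Fosb had 407 CPM (304 to 534) and 110.2 CPM (73.3 to 159), a ratio of 0.271 from 52 and 28 UMIs.

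Jund was the remaining member called lower in neutrophils, with 854 and 480.3 CPM. These 4 were among 8 members with enough UMIs, beside 10.9% of 2857 genes lower, 7.74% higher and 18.6% either in that class. Fos had 1113 and 941 CPM, Egr1 1191 and 996 CPM and Fosl2 313 and 295 CPM, with intervals of the ratio that held 1. The macrophage/monocyte markers in the neutrophil class summed to 8722 CPM in control and 6012 CPM in knockdown, and their part in the ratios was not tested. Fosl1 had 0 UMIs in control neutrophils, which allows a level of up to 23.5 CPM, and 47.2 CPM in knockdown.

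T-like and NK-like cells, the lymphocytes of the tumour, held far less Fos than the myeloid cells. T-like cells had 64.0 and 46.3 CPM of Fos, a ratio of 0.725 (0.570 to 0.923), and NK-like cells 30.4 and 52.5 CPM, a ratio of 1.72 (1.19 to 2.53). Fosl2 was the leading Fos-family gene in both, with 57.6% and 60.5% of family UMIs in T-like cells and 69.7% and 62.1% in NK-like cells. Junb and Jund led their Jun family, with Junb at 482 and 422 CPM and Jund at 501 and 375 CPM in T-like cells.

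In T-like cells Fosl1 was the 1 member past 1.5-fold, beside 5.45% of 10693 genes higher, 2.98% lower and 8.44% either. Btg2 had 189.7 and 195 CPM there, a ratio of 1.03 (0.904 to 1.17), and Egr1 38.7 and 45.0 CPM. Jund was lower in 3 of 3 T-like subclusters with at least 50 cells in each library, with ratios of 0.555 to 0.778. In subcluster 3, with Maf, Tnfrsf4 and Foxp3 among its leading genes, Fos had 86.7 and 27.9 CPM, a ratio of 0.322 (0.136 to 0.688). Over the whole T-like class 1 control cell held 29 of 119 Fos UMIs. The part of single cells in the subcluster ratio was not tested.

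In NK-like cells 5 members were higher and 0 lower, beside 6.17% and 3.0% of 9060 genes and 9.17% either. They were Fos, Fosb (10.8 and 28.3 CPM, from 17 and 41 UMIs), Fosl1, Fosl2 (106.5 and 174 CPM, a ratio of 1.63, interval 1.34 to 1.998) and Egr1 (15.2 and 31.8 CPM, a ratio of 2.09). Fosl2 is the best counted of them, with 168 and 252 UMIs, and it was above 1 in both NK-like subclusters of at least 50 cells per library, at 1.44 and 1.63. Fos was 1.78 in subcluster 12 but 0.818 in subcluster 7, with an interval above 1 in 0 of 2. Egr1 was 2.38 in subcluster 12, while subcluster 7, with too few UMIs to compare, had 17.1 CPM in control and 9.87 CPM in knockdown. In the class as a whole Jund again had a ratio below 1, at 0.743 (0.659 to 0.838). In NK-like cells the markers of macrophages and monocytes summed to 2301 CPM in control and 2398 CPM in knockdown, T-cell markers to 912 and 1074 CPM, and tumour markers to 169 and 206 CPM. Those of red blood cells were all at 0 in control and summed to 22.1 CPM in knockdown, and the part of these cells in the ratios was not tested.

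In lymphocytes and in macrophage/monocyte-like cells as a whole, Fosl1 was close to H19 when both were set against their level in empty droplets, which hold free RNA. H19, a transcript led by tumour-like cells, was used as a yardstick, since its UMIs in T-like, NK-like and macrophage/monocyte-like cells were 5.53% to 7.63% of its empty-droplet level in control and 15.4% to 22.6% in knockdown. Fosl1 in the same classes was 8.07% to 9.13% of its empty-droplet level in control and 15.3% to 20.8% in knockdown. Its empty-droplet level was 62.9 CPM in control and 124 CPM in knockdown. The ratios of Fosl1 were 3.31, 4.81 and 5.04 in macrophage/monocyte-like, T-like and NK-like cells, and the part of free RNA in them was not tested. The macrophage/monocyte-like clusters differed in this measure. In cluster 2 Fosl1 had 3.73 CPM (2 UMIs) in control and 54.7 CPM (29 UMIs) in knockdown, a ratio of 14.7 (3.71 to 127), and the knockdown level was 44.0% of the empty droplets against 22.2% for H19. In cluster 22 Fosl1 was 24.0% and 32.4% of the empty-droplet level, against 9.46% and 18.5% for H19, and in cluster 8 it was 15.8% and 20.3%, against 5.10% and 13.4%. In clusters 0 and 7 the knockdown values of Fosl1, 8.77% and 13.4%, lay below the 16.3% and 23.5% of H19. The ratio of Fosl1 was above 1 in 6 of 6 clusters, at 2.54 to 14.7. In dendritic-like, fibroblast-like and epidermis-like cells of the control library Fosl1 was higher, at 27.4%, 29.7% and 28.5% of the empty-droplet level against 6.85%, 10.5% and 7.66% for H19, and 1 dendritic-like cell held 18 of 23 UMIs. After subtraction of free RNA at the H19 share no ratio of Fosl1 could be had in T-like cells, as at least 1 library was left at 0. Egr1 of the macrophages had a ratio of 2.54 and Btg2 one of 0.647 under the same subtraction.

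**Figure D5:**
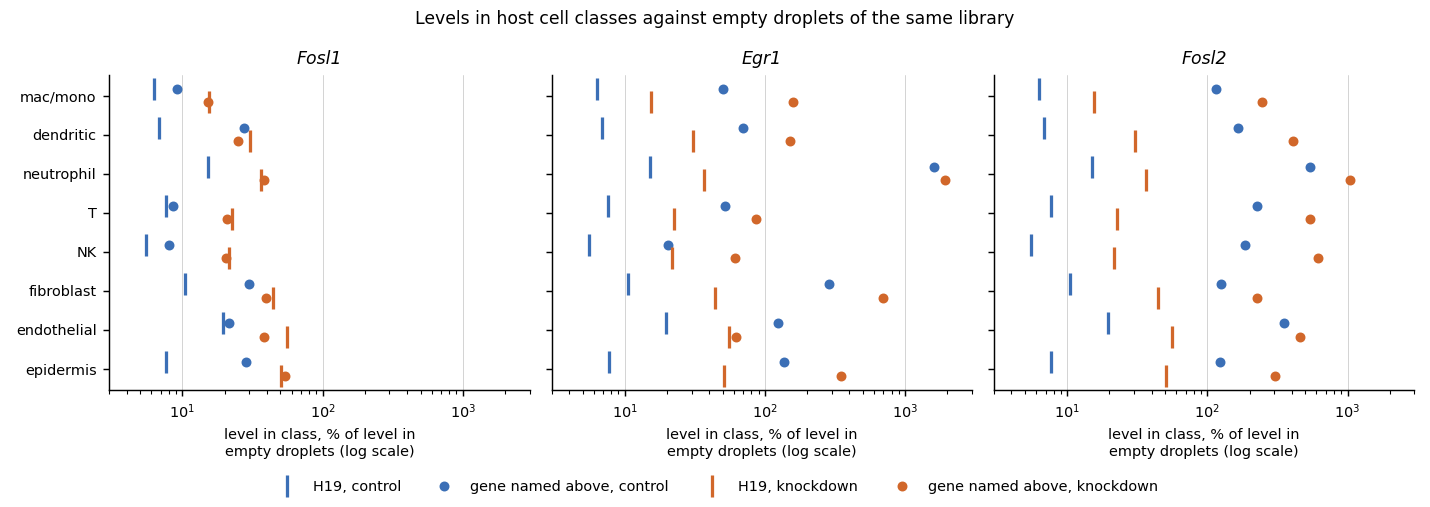
Level of Fosl1, Egr1 and Fosl2 (points) and of H19 (bars) in host cell classes, as a percentage of the level in empty droplets of the same library (log scale). Fosl1 points lie near the H19 bars in T-like and NK-like cells (20.8% and 20.6% against 22.6% and 21.7% in knockdown), while Fosl2 and most Egr1 points lie far to the right; control neutrophils had no Fosl1 UMI and no point.

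Fibroblast-like, endothelial-like and epidermis-like cells numbered 115 to 228 cells per library, and their members did not share a direction. Fibroblast-like cells, with 223 and 351 CPM of Fos (ratio 1.58, 1.36 to 1.83) and 214 and 361 CPM of Egr1 (1.69, 1.46 to 1.96), had 4 members higher and 1 lower, beside 4.06% and 4.43% of 9968 genes and 8.5% either. Epidermis-like cells had 5 higher and 1 lower, beside 7.78% and 5.39% of 9534 genes and 13.2% either, with Jun at 204 and 462 CPM (2.26, 1.89 to 2.71). Endothelial-like cells had 1 higher and 5 lower, beside 7.62% and 5.47% of 8171 genes and 13.1% either.

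In endothelial-like cells Fosb had 68.5 and 19.7 CPM and Egr1 93.0 and 32.3 CPM, from 14 and 23 UMIs in the knockdown library. Both knockdown levels, 54.0% and 62.2% of the empty droplets, stood near the 55.6% of H19 in that class. Fosl1 there, at 47.8 CPM in knockdown, stood lower than H19 against its empty-droplet level given above. H19 therefore need not give the share of free RNA in that class, and the part of free RNA was not tested. Fosl2, at 202 and 129 CPM, was far above the H19 value in both libraries. Ier5l was lower in fibroblast-like and epidermis-like cells too, but on 17 and 4 knockdown UMIs, at 84.9% and 45.0% of its empty-droplet level.

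Across the 9 compared classes the order of levels set the members apart from each other. Fosl1 was highest in tumour-like cells in both libraries, and Ier5l in control tumour-like cells, although there its interval overlapped that of endothelial-like cells (37.9 CPM, 25.8 to 53.9). The tumour-like class was the lowest of the 9 for Btg2, Junb and Fosl2 in both libraries. After neutrophils, Btg2 was highest in dendritic-like cells, and Egr1 in fibroblast-like cells. Fos in control macrophage/monocyte-like and dendritic-like cells, at 477 and 474 CPM, did not differ beyond the counting intervals.

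Over 18 sums (9 classes in 2 libraries) the pattern of Fos was most like that of Nfe2l2 (Pearson r = 0.95), followed by Ptgs2 and Aff1 (0.93 both). Fosb was most like Fos (0.91), Junb like Ier5 (0.97) and Mcl1 (0.96), and Btg2 like Sik1 (0.97) and Nr4a1 (0.95). Fosl1 was most like Dusp9 (0.95), Fosl2 like Ppp2r5a (0.93), Jun like Oasl2 (0.91) and Jund like Ccm2 (0.92). Egr1 was most like Il1rap (0.94) and Ier5l like Sec11a (0.87). These are correlations of log2(CPM + 1) over sums that share libraries and depth, among 11086 genes, and are descriptions only.

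Genes related to the members, in lists drawn up with earlier results known, had calls in both directions in tumour-like cells, beside the 11.7% of all genes higher and 4.02% lower given above. Of 15 AP-1 partners, factors that pair with Fos or Jun proteins or share their zipper, 2 were higher and 0 lower (Batf, 0.367 and 0.666 CPM, and Bach2, 1.29 and 2.17 CPM), with Atf3 at 6.38 and 4.66 CPM. Their median log2 ratio was 0.13. T-cell markers in the tumour-like class summed to 7.44 CPM in control and 16.5 CPM in knockdown. Their part in the low levels of Batf and Bach2 was not tested. Of 45 other immediate early genes with enough UMIs 2 were higher and 5 lower, with a median of 0.04. The higher ones were Trib1 (8.59 and 15.4 CPM) and Nfkbia, an inhibitor of NF-kB (132 and 223 CPM, ratio 1.68), and Id3, an inhibitor of differentiation factors, was among the lower ones (56.3 and 25.1 CPM, ratio 0.445).

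Of 20 AP-1 target genes 6 were higher and 3 lower in tumour-like cells, with a median log2 ratio of -0.03, beside the same 11.7% and 4.02% over all genes. Ccnd1, which encodes cyclin D1, had 299 and 593 CPM, a ratio of 1.98, and Hmox1, which encodes heme oxygenase, 39.2 and 22.8 CPM, a ratio of 0.581. Of 23 upstream kinases and factors 0 were higher and 1 lower: Egfr, the epidermal growth factor receptor, with 23.5 and 15.2 CPM. Heat shock genes that handling also raises had 0 higher and 1 lower of 13 (Hspb1, 4.27 and 1.54 CPM), with a median of 0.03 and Hspa8 at 1532 and 1560 CPM.

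In macrophage/monocyte-like cells 3 of 45 other immediate early genes were higher and 0 lower, beside 7.42% and 1.36% of all genes, with Egr3, a relative of Egr1, at 1.46 and 2.40 CPM. None of 15 AP-1 partners was called, and Atf3 had 272 and 222 CPM. Of 13 heat shock genes 0 were higher and 1 lower. In NK-like cells 6 of 38 other immediate early genes were higher and 0 lower, beside 6.17% and 3.0% of all genes, with a median log2 ratio of 0.37 beside 0.07 over all genes. They included Klf4 (8.87 and 32.5 CPM), which tumour-like cells hold at 163 and 224 CPM. In the same class 2 of 13 heat shock genes were higher, among them Hspa1b with 309 and 516 CPM, and their part in the NK-like values was not tested.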

How the data were processed

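Per the labels' protocols, cells of dissociated MC38 tumours went through a 10x 3' V3.1 kit. The authors deposited unfiltered UMI count matrices from Cell Ranger 4 (per the submitters' processing notes). Which genome and strand setting it ran with is not given in the sources used. The members, the related lists and the tests were chosen with earlier results of these data known.

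A kept barcode had 500 UMIs or more, 250 genes or more and no more than 20% mitochondrial UMIs, and differed from the pooled barcodes of 101 to 400 UMIs, the empty droplets, in 1000 Dirichlet-multinomial draws (false discovery rate 0.01). From 3000 UMIs up every barcode counted as a cell. Among 16874 control and 26702 knockdown barcodes of at least 500 UMIs, 4957 and 8506 did not differ from that pool, and Scrublet marked 477 and 893 doublets, which were removed. More cells were kept than were loaded per the labels' protocols, for a reason not stated there.

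Leiden clustering (scanpy 1.11.5, Python 3.11.15) used 2000 variable genes, 30 components, 15 neighbours and resolution 1, without 143 genes (the members, their lists and mitochondrial genes). A cluster took the class of most fixed markers, at least 3, and Xist below 20 CPM allowed tumour or unnamed. Names are rebuilt and may differ from the study's.

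CPM and ratios were computed here from summed counts, and ratio intervals are conditional exact Poisson intervals (scipy 1.17.1). The method was run on simulated Poisson counts, the model that the intervals assume. That run says nothing of the spread between cells or animals. There is no test across genes, because each group holds 1 library. Each class sum scales with its own depth, so shallow classes have wide intervals. All members are named, and from each list the 2 genes of highest level and the 2 highest and 2 lowest ratios per class could be named; those printed are a selection made with the values in view. Gene positions came from GENCODE vM21 (99.6% of identifiers found).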

Additional observations from a re-analysis of the deposited data

Results flagged for a closer look

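Several members were past 1.5-fold in opposite directions in different cell classes, with every value taken from 1 library per group, so the differences between classes were not tested. The ratio of knockdown over control of Fos was 0.638 in tumour-like cells, but 1.72 in NK-like, 1.58 in fibroblast-like and 1.86 in epidermis-like cells. Fosb had ratios of 0.271 in neutrophil-like and 0.287 in endothelial-like cells, against 2.63 in NK-like, 1.52 in fibroblast-like and 1.77 in epidermis-like cells. Fosl2 was 1.63 in NK-like and 0.641 in endothelial-like cells, and Jun 0.437 in neutrophil-like and 2.26 in epidermis-like cells. Egr1 was 2.22 in macrophage/monocyte-like, 1.52 in dendritic-like, 2.09 in NK-like, 1.69 in fibroblast-like and 1.78 in epidermis-like cells, and 0.348 in endothelial-like cells. The endothelial-like values rest on 120 control and 124 knockdown cells. Single cells weigh on other values. Of the Fosb UMIs, 1 cell held 15 of 52 in control neutrophil-like and 10 of 24 in knockdown epidermis-like cells. In control endothelial-like cells 1 cell held 14 of 56 Fosb UMIs. Of the Jun UMIs, 1 cell held 36 of 168 in control neutrophil-like and 42 of 221 in knockdown epidermis-like cells. Of the Fos UMIs in knockdown epidermis-like cells, 1 cell held 32 of 102. In NK-like subcluster 7 the ratio of Fos was 0.818, and Egr1 had 17.1 CPM in control and 9.87 CPM in knockdown.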

How the results depend on the processing

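Counts of members past 1.5-fold were recomputed under other cell filters, scalings and thresholds. In tumour-like cells the count of 5 became 3 with 10% free RNA subtracted, 1 with a call at a ratio of 2, 2 with clusters at equal weight and, as an alternative added after seeing the data, 3 without the cluster that counted the most fibroblast markers. In T-like cells the count of 1 became 3 with doublets kept, 0 with 10% free RNA subtracted, 2 with cells at equal weight, 2 with cells thinned to 500 UMIs, 3 with a call at a lower ratio and 3 with clusters at equal weight. In macrophage/monocyte-like cells it stayed between 2 and 4 (main count 3). The cause was not tested for the T-like and free RNA changes. Of 376 ratios of single members under the alternatives, 271 lay within the main interval, 105 moved outside it and 0 of the called ones reversed. Ier5l in tumour-like cells ranged from 0.270 to 0.418, Fosl1 from 1.56 to 2.58, and Egr1 of the macrophages from 1.91 to 2.60. The tumour-like ratio of Fos ranged from 0.472 to 0.920 and that of Btg2 from 0.353 to 0.889. Subtractions of free RNA that left Fosl1 at 0 in a library gave no value. No paired analysis was possible because each group holds 1 library, and no replicate could be left out. Depth limits the host classes most: neutrophil-like cells hold 127614 control UMIs in all. Another clustering seed, cells of a middle range of depth, leaving out doubtful T/NK subclusters and subtraction at the H19 share were also added after seeing the data.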

Other observations

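Within tumour-like cells thinned to 500 UMIs, some members were found in the same cells more often than others. Fos and Egr1 shared 41 of 4376 control cells, 4.89 times the product of their shares, and 29 of 6662 knockdown cells, 4.75 times the product. For Fos and Btg2 the factor was 4.52 (17 cells) in control and 7.65 (15 cells) in knockdown. Fos and Fosl1 shared 11 control and 23 knockdown cells, 1.22 and 1.05 times the product. Clusters that differ in level raise such factors by themselves, and their part was not tested.

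Mast or basophil-like cells, too few for the comparisons (35 control and 41 knockdown cells), had 1858 and 1944 CPM of Jun, above the neutrophils. Pericyte-like cells (47 and 45 cells) had 764 and 414 CPM of Jun, and 445 and 157 CPM of Jund.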
